A study of Drosophila melanogaster with 3 samples.

Results

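The genes described here encode the receptors for GABA, and the channel through which glutamate inhibits neurons, in *Drosophila melanogaster*. They are 7 of the 17558 genes in the deposited count table, and were chosen by name: the GABA-gated channel genes *Rdl*, *Lcch3* and *Grd*, the metabotropic GABA receptor genes *GABA-B-R1*, *GABA-B-R2* and *GABA-B-R3*, and the glutamate-gated chloride channel gene *GluClalpha*. Each symbol was matched to its FlyBase ID, and all 7 were found and counted in every library. The 3 libraries came from heads of untreated adult flies kept at 25°C, labelled wild type with replicate numbers 1 to 3. The series text names the flies as CantonS, whereas the methods of the study give another genotype for the flies it calls wild type. Per its methods, the study used adult flies of both sexes, but the number, sex and age of the flies in each library were not given in the sources used here. Per the labels, 150 ng of total RNA per library went into a stranded mRNA kit that selects polyadenylated RNA. All libraries belong to 1 group, so the comparisons are of one gene with another in the same library and of replicates with each other, with no contrast between conditions. Nothing in the labels says whether the replicates are separate collections of flies, so their spread may be partly technical.

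GABA is the main inhibitory transmitter of the insect brain. It acts on fast channels of the Cys-loop family, which assemble from subunits around a central pore, and on slower GABA-B receptors, which are coupled to G proteins. In the fly brain, glutamate also inhibits many neurons, because it opens the chloride channel formed by GluClalpha. Rdl, named for resistance to dieldrin, forms the best known GABA-gated chloride channel and is a target of insecticides. Lcch3 and Grd are related subunits, and in frog oocytes the pair assembles into a GABA-gated channel that passes cations. GABA-B-R1 and GABA-B-R2 work as a heterodimer, and GABA-B-R3 belongs to the same receptor family in insects. GluClalpha is a target of ivermectin.

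The libraries of replicates 1, 2 and 3 held 8332583, 7349123 and 6299265 counts. Replicate 2 stood apart from the others. Across all tested genes the common biological coefficient of variation (the relative spread between replicates beyond counting error) was 0.10005, and 0.0704 without replicate 2. Apart from the testis list, these fixed marker lists fitted the label of heads: all 5 matched neuronal markers, all 6 photoreceptor markers and all 5 glial markers were detected, meaning at least 10 counts over the 3 libraries. Of the gonad markers, listed as genes that should be absent from heads, 0 of 4 matched ovary genes and 2 of 5 testis genes (*bol* and *topi*) were detected. *bol* was not near the floor. It had 221 CPM ± 37.8, about the level of the neuronal marker *elav* at 212 ± 19.5 (SD, n = 3), while *topi* had 3.55 CPM. The summed neuronal markers ranged from 3579 to 4230 CPM (counts scaled to a library total of 1000000), the glial markers from 3368 to 3650 CPM and the head fat body markers from 16262 to 25460 CPM. In whole heads, fewer cells of a type and less RNA per cell cannot be told apart.

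The gene models differ in ways that matter for the levels. In the dm6 coordinates of a later Ensembl annotation than the one the study named, *Rdl* (FBgn0004244) lies on chromosome 3L at 9145838 to 9182149, minus strand. *Grd* (FBgn0001134) lies on the same arm at 17823333 to 17839767, plus strand. *Lcch3* (FBgn0010240) lies on X at 15925105 to 15928529, plus strand. *GABA-B-R1* (FBgn0260446) is on 2L at 15016331 to 15034704, plus strand, and *GABA-B-R3* (FBgn0031275) on 2L at 749945 to 762399, plus strand. *GABA-B-R2* (FBgn0027575) is on 3R at 21770333 to 21775840, minus strand, and *GluClalpha* (FBgn0024963) on 3R at 19730715 to 19775231, plus strand. The 7 loci thus spread over 4 chromosome arms, and each codes for protein.

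*Rdl* and *GluClalpha* carried the most noncoding exon sequence. Their longest coding sequences made up 20.3% of 8994 exon bases in *Rdl* and 20.9% of 6633 in *GluClalpha*. In *GABA-B-R2*, by contrast, 92.1% of 3988 exon bases were coding. The shares were 78.2% of 1903 bases in *Lcch3*, 55.7% of 7035 in *GABA-B-R3*, 50.6% of 4071 in *Grd* and 44.7% of 5642 in *GABA-B-R1*. *GluClalpha* had 11 annotated transcripts with 8 protein lengths, from 263 to 463 residues. *GABA-B-R3* had 7 transcripts, with proteins of 357 to 1305 residues, and *Rdl* had 6, with proteins of 579 to 608 residues. *Lcch3* and *Grd* had 1 transcript each. Counts were made per gene, so isoforms were not measured.

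Of the GABA-gated channel genes, *Rdl* had 3137, 2429 and 2627 counts in replicates 1, 2 and 3. These correspond to 376 CPM in replicate 1 (Wilson 95% interval 364 to 390), 331 in replicate 2 (318 to 344) and 417 in replicate 3 (401 to 433). The intervals, which cover counting error only, did not overlap, and replicate 2 was the lowest. The mean was 375 CPM ± 43.3 (SD, n = 3), a coefficient of variation of 11.6%, where counting alone would give 1.93%.

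*Lcch3*, which encodes a subunit of the same channel family, had 504, 414 and 360 counts in replicates 1, 2 and 3. It had 60.5, 56.3 and 57.1 CPM in the same libraries, a mean of 58.0 CPM ± 2.20 (SD, n = 3). The spread of 3.79% was no larger than that of counting (4.88%), and the intervals of all libraries overlapped.

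*Grd* had the fewest counts of the group, with 253, 186 and 142 in replicates 1, 2 and 3. Its levels were 30.4 CPM in replicate 1 (Wilson 95% interval 26.8 to 34.3), 25.3 in replicate 2 (21.9 to 29.2) and 22.5 in replicate 3 (19.1 to 26.6). The intervals of replicates 1 and 3 did not overlap, and replicate 1 was the highest. The mean was 26.1 CPM ± 3.97 (SD, n = 3), with the largest coefficient of variation of the 7 genes (15.2%, against 7.23% from counting).

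Both *Lcch3* and *Grd* share exon bases with genes on the other strand, which none of the other 5 genes did. *Lcch3* shares 456 bases with *Ranbp16* and 140 with asRNA:CR45000, or 24.0% and 7.36% of its exon length. *Grd* shares 1118 bases, or 27.5%, with *CG5577*. *Ranbp16* had 76.7 CPM ± 4.10 and *CG5577* 33.6 CPM ± 2.77 (SD, n = 3), whereas asRNA:CR45000 had 1, 0 and 2 counts. The kit marks strand, but the strand setting of the counting was not given in the sources used here. The levels of *Lcch3* and *Grd* are therefore less certain than those of the other genes. If no read was counted in the shared bases, their levels per kilobase of remaining exon would be 44.4 and 8.83 CPM.

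Of the metabotropic receptor genes, *GABA-B-R2* had the most counts, with 1501, 1329 and 1194 counts in replicates 1, 2 and 3. In CPM these libraries stood at 180.1, 180.8 and 189.5, a mean of 184 CPM ± 5.24 (SD, n = 3). Its spread of 2.86% was close to that of counting (2.75%), and was the smallest coefficient of variation of the 7 genes in CPM. GABA-B-R2 is the partner that, in the mammalian heterodimer, couples to the G protein.

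*GABA-B-R1* encodes the partner that binds GABA in the mammalian receptor, and it had 713, 561 and 559 counts in replicates 1, 2 and 3. Replicates 1, 2 and 3 stood at 85.6, 76.3 and 88.7 CPM, a mean of 83.5 CPM ± 6.44 (SD, n = 3). Replicate 2 was the lowest, and the spread of 7.71% exceeded that of counting (4.07%).

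*GABA-B-R3* had 616, 575 and 505 counts in replicates 1, 2 and 3. It had 73.9, 78.2 and 80.2 CPM in the same libraries, a mean of 77.4 CPM ± 3.20 (SD, n = 3). The spread of 4.13% was within that of counting (4.23%), and the intervals of all libraries overlapped.

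*GluClalpha* had 3068, 2394 and 2435 counts in replicates 1, 2 and 3. The levels were 368 CPM in replicate 1 (Wilson 95% interval 355 to 381), 326 in replicate 2 (313 to 339) and 387 in replicate 3 (372 to 402). The interval of replicate 2 lay below both others, which overlapped. The mean was 360.2 CPM ± 31.2 (SD, n = 3), with a coefficient of variation of 8.66% where counting gives 1.96%. Without replicate 2, the mean levels were 397 CPM for *Rdl*, 377 for *GluClalpha* and 87.2 for *GABA-B-R1*. The plot of levels by library shows the 2 genes with the most counts, *Rdl* and *GluClalpha*, lowest in replicate 2.

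**Figure D1:**
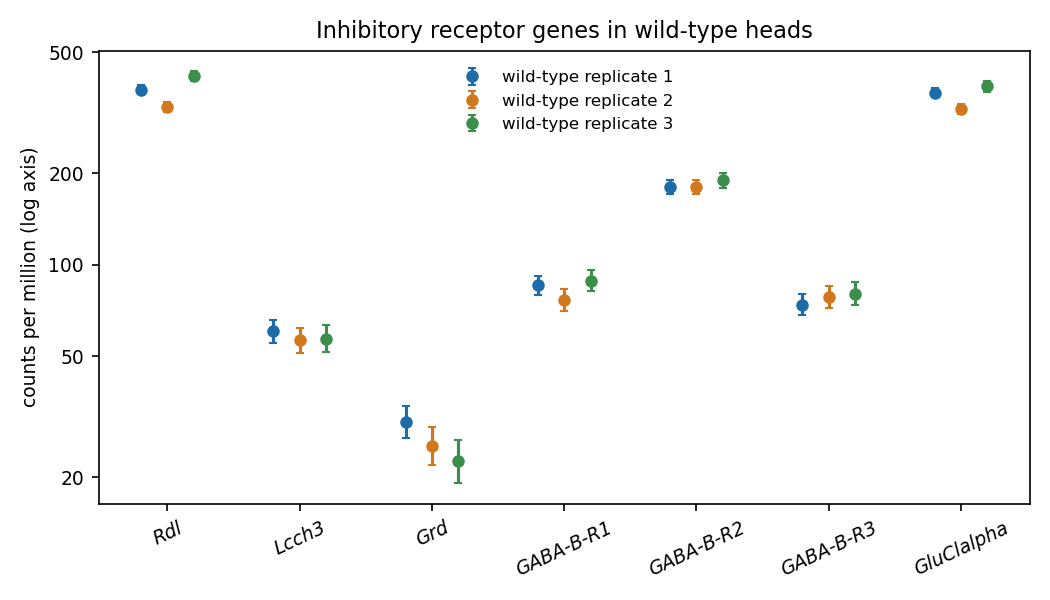
CPM (log axis) of the 7 inhibitory receptor genes in each wild-type library (colours), with bars for the Wilson 95% interval, which covers counting error only. *Rdl* and *GluClalpha* were lowest in replicate 2 (331 and 326 CPM), and *Grd* was highest in replicate 1 (30.4 CPM).

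Since longer transcripts give more fragments, levels were compared between genes per kilobase of exon. On this scale *GluClalpha* was first, at 54.3 CPM per kb ± 4.70, followed by *GABA-B-R2* at 46.01 ± 1.31 and *Rdl* at 41.7 ± 4.81 (SD, n = 3). *Lcch3* followed at 30.5 CPM per kb ± 1.16, *GABA-B-R1* at 14.8 ± 1.14, *GABA-B-R3* at 11.0 ± 0.454 and *Grd* at 6.40 ± 0.974 (SD, n = 3). Per kilobase of exon, *GluClalpha* exceeded 87.5% of the 9901 detected genes with a known length, *GABA-B-R2* 85.0%, *Rdl* 83.6% and *Lcch3* 77.5%. *GABA-B-R1* exceeded 56.7%, *GABA-B-R3* 46.7% and *Grd* 31.97% of them. The group thus spanned the range from the lower to the upper part of head expression.

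The order of neighbours was the same in 3 of 3 libraries for all 6 neighbouring pairs, but the gaps differed in size. The log2 ratio of *GABA-B-R2* to *Rdl* stood at 0.11, 0.30 and 0.04 in replicates 1, 2 and 3, a mean of 0.15 ± 0.14 (SD, n = 3). This difference was about as large as its spread, it was 0.073 without replicate 2, and the ranges of the pair overlapped (45.2 to 47.5 CPM per kb for *GABA-B-R2*, 36.7 to 46.4 for *Rdl*). *GluClalpha* exceeded *GABA-B-R2* by a log2 value of 0.24 ± 0.10, *Rdl* exceeded *Lcch3* by 0.44 ± 0.16 and *GABA-B-R1* exceeded *GABA-B-R3* by 0.43 ± 0.13 (SD, n = 3). On this exon scale the widest steps were from *Lcch3* to *GABA-B-R1* (1.04 ± 0.10) and from *GABA-B-R3* to *Grd* (0.79 ± 0.28). For each of these 6 pairs a two-sided exact permutation test by sign flips gave p = 0.25, below which 3 libraries cannot go, and 0.25 after Benjamini-Hochberg adjustment. The pairs and their direction were taken from the mean levels in these same libraries. Neither the shared order nor the p-value is therefore an independent test of the order.

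The top of this order, and the size of the steps below it, depend on which length is used. Per kilobase of the longest coding sequence, *GluClalpha* reached 259 CPM ± 22.5 and *Rdl* 205 CPM ± 23.7, far above *GABA-B-R2* at 49.97 ± 1.43 (SD, n = 3). The log2 ratio of *GABA-B-R2* to *Rdl* then turned to -2.03. *Lcch3* had 39.0 CPM per coding kb, *GABA-B-R1* 33.1, *GABA-B-R3* 19.8 and *Grd* 12.7, so these 4 kept their order. The log2 ratio of *Lcch3* to *GABA-B-R1* was only 0.24 on that scale, and it turned to -0.52 without any length correction. That of *GABA-B-R3* to *Grd* was 0.65 per coding kb and 1.58 without length correction. The coding scale divides reads from the whole mRNA by its coding part, and it overstates mRNAs with long untranslated ends. The exon scale counts every annotated end as used, and it understates genes whose long forms are rare. The levels of *Rdl* and *GluClalpha* relative to the rest therefore depend on the scale, as the plot of the 3 length definitions shows.

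**Figure D2:**
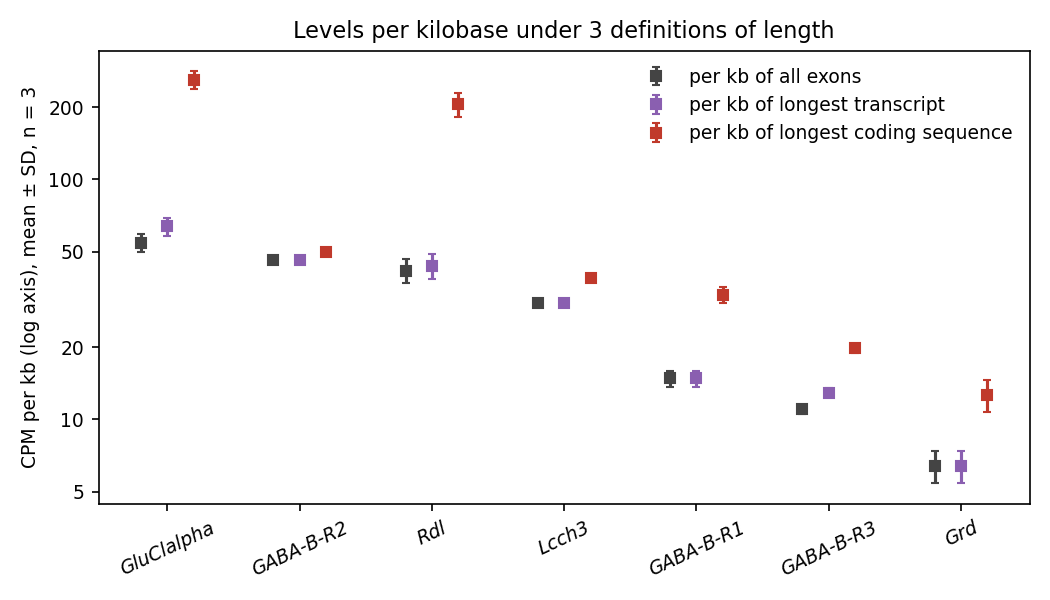
Mean CPM per kilobase (log axis, bars SD, n = 3) of each gene under 3 definitions of length: all annotated exons, the longest transcript and the longest coding sequence. *GluClalpha* and *Rdl* move most between exon and coding length (54.3 to 259 and 41.7 to 205), while *GABA-B-R2* moves from 46.01 to 49.97.

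Receptor partners, and other related receptor genes compared in pairs, were not equal in level. *GABA-B-R1* was lower than *GABA-B-R2* by a log2 ratio that stood at -1.57, -1.74 and -1.59 in replicates 1, 2 and 3 (mean -1.64 ± 0.09, SD, n = 3), a ratio of 0.321 per kilobase of exon. Per coding kilobase the ratio was 0.662, so the direction held and the size did not. *GABA-B-R3* was lower than *GABA-B-R1* by -0.43 ± 0.13. *Grd* was lower than *Lcch3*, its partner in oocytes, by -2.26 ± 0.17, and lower than *Rdl* by -2.70 ± 0.31 (SD, n = 3). *Lcch3* was lower than *Rdl* by -0.44 ± 0.16, although this turned to 0.10 when exon bases shared with another gene were left out of the length. *GluClalpha* was higher than *Rdl* in every library, by 0.41, 0.42 and 0.33 in replicates 1, 2 and 3 (mean 0.39 ± 0.05, SD, n = 3), a direction that depends on the length, since without any length correction the ratio was -0.054. All 6 of these pairs, not all of them receptor partners, had an exact sign-flip permutation p of 0.25, and 0.25 after adjustment over the 6.

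As shares of the group, the receptor classes differed little between libraries. Per kilobase of exon, the 3 GABA-gated channel genes made up 39.1%, 37.9% and 38.1% of the group's summed level in replicates 1, 2 and 3. The GABA-B receptor genes made up 34.1%, 36.5% and 34.7%, and *GluClalpha* 26.8%, 25.6% and 27.1%, in the same libraries. The 7 genes summed to 1175, 1073 and 1242 CPM in these libraries (mean 1163 ± 84.8, SD, n = 3).

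None of the 7 genes stood out for its spread between replicates. Of the 7 inhibitory receptor genes, 0 were called as variable between replicates, beside 29 of the 9049 genes in the edgeR quasi-likelihood fit (0.32%, Benjamini-Hochberg adjusted threshold 0.05). The fit asks whether a gene's libraries scatter beyond what its abundance predicts. Without adjustment the same threshold called 0 of the 7 and 4.64% of all tested genes. DESeq2 marked 0 of the 7 as dispersion outliers, beside 107 of the 9049 genes. With shares this small over all genes, 0 of 7 says little about these genes in particular. All 7 had passed the filter on low counts. The smallest unadjusted p-values were those of *Rdl* (edgeR, 0.116, adjusted 0.992) and *Grd* (edgeR, 0.125, adjusted 0.992). Over all edgeR alternatives the adjusted p of the 7 ranged from 0.614 to 0.998, and the lowest was that of *Grd* without replicate 2 (unadjusted 0.0208). After TMM scaling (a scaling factor per library that discounts the most extreme genes), the highest library exceeded the lowest by 1.35-fold in *Grd*, 1.31-fold in *Rdl*, 1.23-fold in *GluClalpha* and 1.21-fold in *GABA-B-R1*. It did so by 1.12-fold in *Lcch3*, 1.09-fold in *GABA-B-R2* and 1.08-fold in *GABA-B-R3*. The median over all tested genes was 1.17-fold, with an upper quartile of 1.30-fold.

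**Figure D3:**
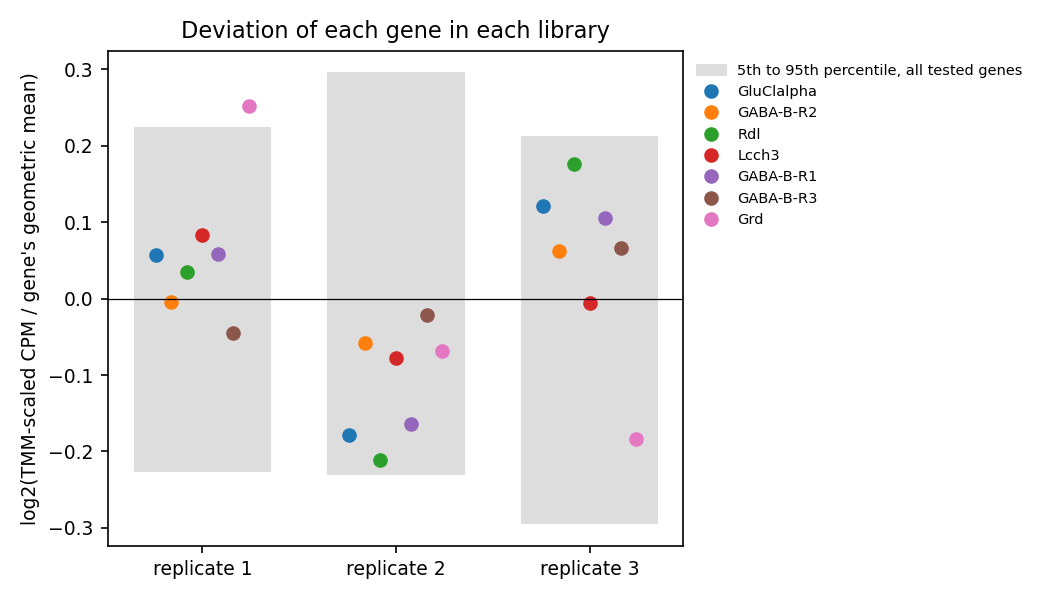
Log2 of the TMM-scaled level of each of the 7 genes (colours) in each library over its own geometric mean, with grey bands for the 5th to 95th percentile of all 9049 tested genes. All 7 genes lie below 0 in replicate 2, and *Grd* in replicate 1 (0.25) lies just above its band (0.22).

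The direction of these small deviations was shared. After TMM scaling, 5 of the 7 genes were lowest in replicate 2 and 5 were highest in replicate 3, while 36.0% of all tested genes were lowest in replicate 2 and 33.6% highest in replicate 3. Exon length moved with this. Among 8692 tested protein-coding genes, the median log2 ratio of replicate 3 to replicate 2 was -0.12 in the shortest quartile (162 to 1365 bases), -0.07 and 0.003 in the middle quartiles and 0.13 in the longest (3739 bases and more). Of the longest quartile, 76.6% of genes were higher in replicate 3 than in replicate 2. Spearman's rho between length and this ratio was 0.39 across those genes, which share the same libraries and are not independent. The noncoding share of exon moved with the ratio too, less strongly (rho 0.19). In its lowest quartile 41.6% of genes were higher in replicate 3 than in replicate 2, and in its highest 61.3%.

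The inhibitory receptor genes fell mostly into the longest quartile. It held 6 of the 7, and 5 of those 6 were higher in replicate 3 than in replicate 2. The log2 ratio of replicate 3 to replicate 2 was 0.39 for *Rdl*, 0.30 for *GluClalpha* and 0.27 for *GABA-B-R1*, each above the quartile median of 0.13. It was 0.12 for *GABA-B-R2* and 0.09 for *GABA-B-R3*, close to that median. *Grd*, the exception, had -0.11, and *Lcch3*, in a shorter quartile, had 0.07. The parts of length and of noncoding share in the levels of these genes were not tested.

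**Figure D4:**
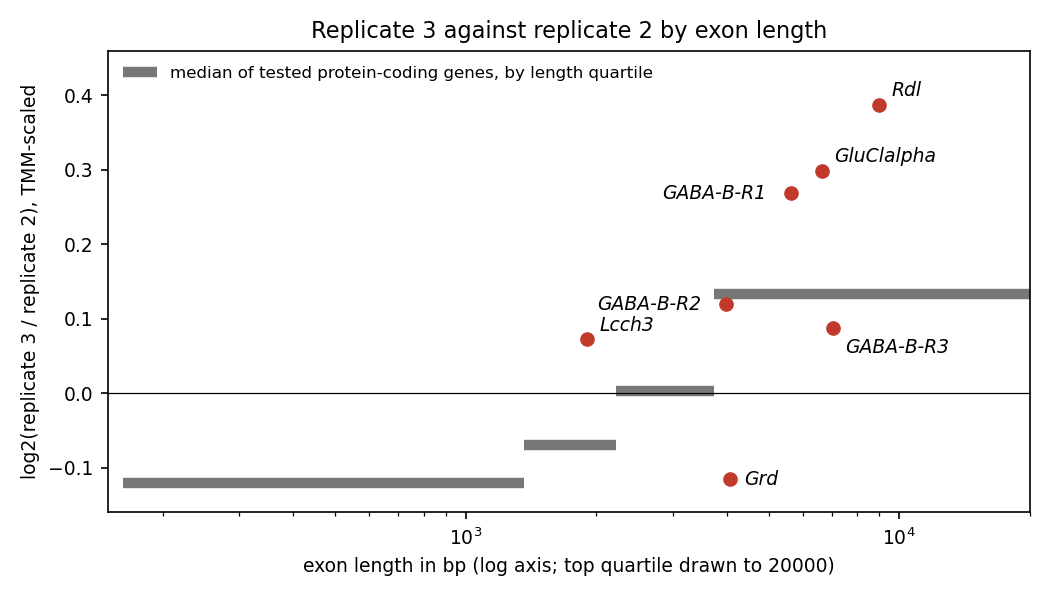
Log2 ratio of replicate 3 to replicate 2 (TMM-scaled) against exon length (log axis) for the 7 genes (red), with the median of tested protein-coding genes in each length quartile (grey bars, 4 quartiles of 8692 genes). The medians run from -0.12 to 0.13 with length, *Rdl* lies highest at 0.39, and *Grd* lies at -0.11.

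Neuronal markers moved with the same libraries. Summed over *elav*, *nSyb*, *brp*, *Syt1* and *Syn*, they stood at 4005, 3579 and 4230 CPM in replicates 1, 2 and 3, all 5 being detected. The sum of the 7 receptor genes came to 29.3%, 29.99% and 29.4% of this marker sum in replicates 1, 2 and 3, a coefficient of variation of 1.26%, where the plain CPM gave 7.29%. This scaling was chosen after the values were seen. *GluClalpha* was 9.19%, 9.10% and 9.14% of the neuronal sum in replicates 1, 2 and 3 (coefficient of variation 0.499%), and *GABA-B-R1* was 2.14%, 2.13% and 2.10% (1.01%). Both coefficients lie below what counting alone would give (1.96% for *GluClalpha* and 4.07% for *GABA-B-R1*). Agreement this close over 3 libraries therefore cannot be taken as the true spread. For *Rdl* the coefficient became 3.40%.

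The other 4 genes went the other way on that scale. Relative to the neuronal sum, the coefficient of variation was 6.96% for *GABA-B-R2*, 7.77% for *Lcch3*, 9.31% for *GABA-B-R3* and 17.7% for *Grd*, each larger than on plain CPM. *GABA-B-R3* was 1.85%, 2.19% and 1.90% of the sum in replicates 1, 2 and 3, highest in replicate 2. Against the glial markers (3650, 3368 and 3376 CPM in the same order), the coefficient for the 7 together was 8.17%. *Lcch3* and *Grd* had smaller coefficients against the glial markers than on both other scales. *Lcch3* was 1.66%, 1.67% and 1.69% of the glial sum in replicates 1, 2 and 3 (coefficient of variation 1.07%), and the coefficient for *Grd* was 10.9%. That of *Lcch3* again lies below what counting alone would give (4.88%). The neuronal scale thus narrowed the spread of *Rdl*, *GluClalpha* and *GABA-B-R1* over 3 libraries and widened that of the others. Scaling to the summed nicotinic acetylcholine receptor subunit genes gave a like pattern. The coefficient was then 2.63% for *Rdl*, 1.06% for *GluClalpha* and 2.06% for *GABA-B-R1*, the last 2 again below counting. Those of the other 4 genes were again larger than on plain CPM. The neuronal markers are themselves long, with 4.07 kb of exon in *nSyb* and 5.80 to 13.4 kb in the rest, and the parts of length and of neuronal content were not tested. Both marker sums also rest mostly on their most abundant genes. In the glial sum, *Gs2* had a mean of 2009 CPM and *repo* 58.9. In the neuronal sum, *Syt1* had 1446 and *nSyb* 1208, against 212 for *elav*.

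The 7 inhibitory receptor genes had a median of 30.5 CPM per kb of exon, where the median of all detected genes was 12.3, and *GABA-B-R3* and *Grd* lay below 12.3. The related lists were compared on the exon scale only. Per coding kb, *Rdl* reached 205 and *GluClalpha* 259, and the lists were not recomputed on that scale. Which listed genes lie above *Rdl* or *GluClalpha* may therefore depend on the length used. Among the 8 other Cys-loop anion channel genes, 6 passed as detected, and these had a median of 13.3 CPM per kb. The highest was the histamine receptor gene *ort* at 17.7 ± 0.814 (SD, n = 3), below *Lcch3*, and the lowest detected was *SecCl* at 5.37. *CG8916*, a further gene of the GABA receptor branch, had 9.24 CPM per kb, between *GABA-B-R3* and *Grd*. *pHCl-2* (0, 1 and 0 counts in replicates 1, 2 and 3) and *CG6927* (1, 0 and 1) were at or under the limit of 3 counts per library.

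The lists of other transmitter receptors overlapped this range. The 10 nicotinic acetylcholine receptor subunit genes, all detected, had a median of 20.6 CPM per kb, from 4.99 for *nAChRalpha3* to 130.01 for *nAChRbeta1*. *nAChRbeta1* alone exceeded *GluClalpha*, and *nAChRalpha7* (44.4 CPM per kb) was the other that exceeded *Rdl*. Of 13 other glutamate receptor genes (AMPA, kainate and NMDA types, muscle types and the metabotropic *mGluR*), 12 were detected, with a median of 8.78 CPM per kb. Their highest was *Ekar*, a kainate-type receptor gene, at 24.3 CPM per kb, so 0 of 12 reached *Rdl*, and 6 lay below *Grd*.

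Most genes that make, move or clear the transmitters had higher levels per kb of exon than the receptors, a comparison not made per coding kb. *Gad1*, which makes GABA from glutamate, had 212 CPM per kb ± 15.6 (SD, n = 3), and 4 of the 5 genes of GABA synthesis, transport and breakdown lay above *GluClalpha*. The exception was *VGAT*, the vesicular GABA transporter gene, at 29.7 CPM per kb. The 4 genes of glutamate release and uptake all exceeded *Rdl*, from 49.3 CPM per kb for the vesicular transporter gene *VGlut* to 900.3 for the glutamine synthetase gene *Gs2*. Chloride channels depend on the chloride gradient, and the cotransporter genes that set it had 161 CPM per kb for *kcc*, which exports chloride, and 51.8 for *Ncc69*, which imports it. All 7 genes of the G proteins and inward rectifier channels listed downstream of GABA-B receptors were detected, and their median was 54.8 CPM per kb, from 6.33 for *Irk1* to 399 for *Ggamma1*. *Galphao* (58.8 CPM per kb) lay above all 3 GABA-B receptor genes, and *Galphai* (23.9) between *GABA-B-R2* and *GABA-B-R1*.

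**Figure D5:**
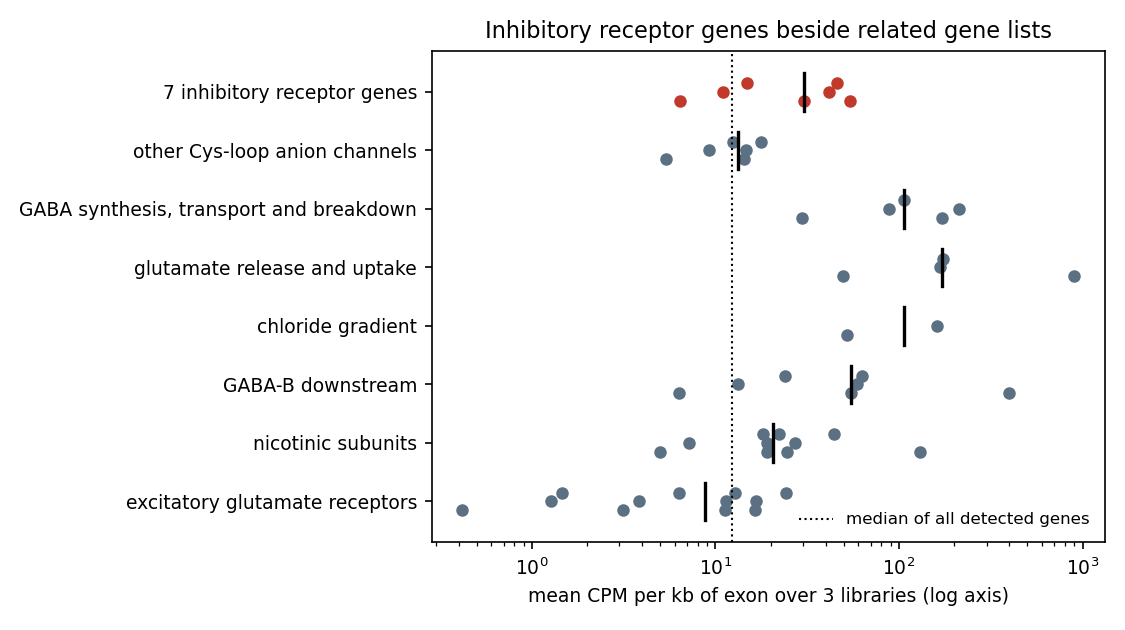
Mean CPM per kilobase of exon over 3 libraries (log axis) of the 7 inhibitory receptor genes (red) and of the detected genes of related lists (grey), with a black bar at each list's median. The median of the 7 genes (30.5) lies above those of the other Cys-loop anion channels (13.3), the nicotinic subunits (20.6) and the other glutamate receptors (8.78), and the dotted line marks the median of all detected genes (12.3).

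Likeness of level was measured as the largest absolute log2 difference in CPM per kb over the 3 libraries, among 46 detected genes of these lists. The closest match of any inhibitory receptor gene was *Lcch3* with *VGAT*, which differed by at most 0.06. *Lcch3* had 31.8, 29.6 and 30.03 CPM per kb in replicates 1, 2 and 3, against 30.4, 28.6 and 30.1 for *VGAT*. This match rests on the full exon length of *Lcch3*, whose mean without its shared exon bases would be 44.4 CPM per kb. *GABA-B-R3* was nearest to *GluRIA* (0.09) and *Nmdar2* (0.10), and *GluClalpha* to *Galphao* (0.13) and *VGlut* (0.17). *Rdl* (0.15) and *GABA-B-R2* (0.16) were both nearest to *nAChRalpha7*, then to *VGlut*. All of these matches hold for exon length only, since per coding kb *Rdl* had 205 CPM and *GABA-B-R2* 49.97. *GABA-B-R1* was nearest to *mGluR* (0.19) and *pHCl-1* (0.19), and *Grd*, with no gene within 0.25, to *GluRIB* (0.26) and *Irk1* (0.29).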

How the data were processed

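mRNA from heads of 3 wild-type libraries was analysed. The authors deposited raw read counts per FlyBase gene ID. The submitters' processing notes name STAR 2.7.4a, Subread, featureCounts and dm6, and per its methods the study ran snakePipes (RNA-seq) against Ensembl release 96. Strand and multi-mapping settings are not given in the sources used here. The table held 0 unused columns and 0 rows without a gene name. Symbols and lengths came from a later Ensembl release, which matched 17252 of 17558 IDs (98.3%). *CG12344* and *CG7589* were read as *alka* and *SecCl*. The markers *para*, *wupA* and *nos* were not matched.

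CPM was taken over all genes, and levels per kb over the union of annotated exons. Wilson 95% intervals cover counting error only. Ratios used 0.5 added counts. Variability was fitted with edgeR 4.0.16 (R 4.3.3; TMM, filterByExpr, intercept only, quasi-dispersion against its prior, upper tail of F, threshold 0.05), tested on simulated data, with DESeq2 1.42.0 as an alternative. Chi-square per degree of freedom between libraries was 5.02 to 18.1, so none was a repeat deposit. All 7 genes were named. Of the lists, the highest and lowest member were named, and any gene set against a member. The members and lists were chosen with earlier results of these data known.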

Additional observations from a re-analysis of the deposited data

How the results depend on the processing

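For 41 results, 244 alternative values were computed, of which 208 were labelled the same. These stayed within 1 SD of the replicates, kept their direction or, for counts of genes, stayed within 1.5 times. The 208 also hold the variability results of the 7 genes, none of which was called under any alternative. No paired analysis was possible because there is only 1 group. Length was the choice that moved levels most. Coding length gave 259 CPM per kb for *GluClalpha*, 205 for *Rdl*, 49.97 for *GABA-B-R2*, 39.0 for *Lcch3*, 33.1 for *GABA-B-R1*, 19.8 for *GABA-B-R3* and 12.7 for *Grd*, and turned the log2 ratio of *GABA-B-R2* to *Rdl* to -2.03. The longest transcript gave 63.6 for *GluClalpha* and 12.9 for *GABA-B-R3*. Leaving out exon bases shared with another gene, chosen after seeing the data, gave 44.4 for *Lcch3* and 8.83 for *Grd*, and turned the log2 ratio of *Rdl* to *Lcch3* to -0.10 (*Lcch3* to *Rdl*, 0.10). Without a length correction, that of *GluClalpha* to *Rdl* was -0.054. A total without mitochondrial genes gave, by construction, higher CPM for all 7, and moved *GABA-B-R2* (195), *GABA-B-R3* (82.3) and *Lcch3* (61.7) by over 1 SD. Leaving out a library reversed 0 of the 12 ratios, but this outcome was fixed in advance. Each ratio had the same sign in all 3 libraries, so leaving 1 out could not reverse it. These ratios are nevertheless among the 208. The 12 count *Rdl* with *Lcch3*, and *GABA-B-R1* with *GABA-B-R3*, in both sets of pairs. The count of replicate-variable genes over the whole table was 44 to 57 with a library left out, 118 with no filter on low counts and 107 as DESeq2 dispersion outliers, against 29, and the cause was not tested. The depth of 6299265 to 8332583 counts limits *Grd* most, where counting alone gives a spread of 7.23%.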
